A study of Mus musculus with 1457 samples.

Results

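Sox7, Sox17 and Sox18 are the 3 members of the SoxF group of transcription factors, and they were taken by gene name from the counts of 36131 genes in 1457 single cells of the mouse aorta-gonad-mesonephros (AGM) region, the embryonic tissue around the dorsal aorta in which the first blood stem cells form. All 3 had reads in every group of cells. SoxF proteins bind DNA through a high-mobility-group (HMG) box and work in endothelial cells as partly redundant regulators of vessel formation, arterial identity and lymphatic development. In the embryo, blood cells arise from a specialised endothelium, the hemogenic endothelium, which rounds up and leaves the vessel wall in the endothelial-to-hematopoietic transition. Sox17 is known as a marker and regulator of arterial and hemogenic endothelium, and forced SoxF expression is known to hold mouse hemogenic cells back from becoming blood.

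Cells were sorted by flow cytometry from embryos of the outbred ICR strain and sequenced individually with Smart-seq2, a full-length method without molecular identifiers. The Gfi1/Gfi1b line carries knock-in reporters for GFI1 (Tomato) and GFI1B (GFP), the factors that switch off endothelial genes during the transition, and the heterozygous cells were Gfi1:Tomato/WT Gfi1b:GFP/WT. From these embryos came CDH5-positive endothelium without reporter (Endo), hemogenic endothelium with the GFI1 reporter (HE), cells in transition that were also KIT and CD41 positive (EHT), and intra-aortic hematopoietic clusters that were also GFI1B positive (IAHC). At E10.5 these numbered 74 Endo, 95 HE, 41 EHT and 42 IAHC cells, and at E11.5 they numbered 16 Endo, 40 HE and 22 IAHC cells.

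Another 41 Endo, 43 HE and 42 EHT cells of the same line were titled E11.5 but carried E10.5 in the stage label, and are called the stage-conflict set. A knockout sort held 42 E10.5 HE cells of genotype Gfi1:Tomato/Tomato Gfi1b:GFP/GFP. The Runx1b line reports on the RUNX1b isoform of RUNX1, the master regulator of the transition. From Runx1b:RFP/WT embryos at E10.5 came 53 Endo cells, an HE sort that made up 17.98% of all 1457 cells and a sort of CDH5-negative mesenchymal (Mes) cells with 7.34% of all cells, and 91 further Mes cells were Runx1b:RFP/RFP. Another HE sort of this line, with 19.01% of all cells, was titled knockout but labelled Runx1b:RFP/WT in the genotype field, and its cells are called the cells titled knockout. A last sort of Gfi1:Tomato/WT embryos at E10.5 used the surface enzyme ACE and gave 14 ACE-GFI1- (Endo) and 39 ACE+GFI1+ (HE) cells and an ACE+GFI1- sort with 7.96% of all cells. All sorts excluded CD45 and TER119, the surface markers of mature blood and red cells.

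The labels name no embryo for any cell, so the cells of each of the 19 groups were summed and each sum counted as 1 sample. Cells had 12 to 5652968 reads (median 598000), and the sums held 14577594 to 199887490. Values are counts scaled to 1000000 reads of a sum (CPM). Intervals of a CPM are exact Poisson and those of a share are exact binomial (Clopper-Pearson), both at 95%; where no cell had a read, the limit given is 3 cells of the total instead. Intervals and limits cover counting error only. In 83 cells globin genes took at least 1% of reads, and these are called erythroid-like: 14 of them were among the 22 E11.5 IAHC cells and 16 among the 95 E10.5 HE cells. Beside those, 10 or more of 20 pan-endothelial genes had reads in all 74 E10.5 Endo cells but in 51.1% of the Runx1b HE cells, where mesenchymal genes were abundant instead. Cdh5, the gene of the sorted endothelial cadherin, was read in every E10.5 Endo cell, in 53.1% of Runx1b HE cells, in 36.4% of E11.5 IAHC cells and in 11.2% of heterozygous Mes cells. In sums of cells, fewer expressing cells and less RNA per cell cannot be told apart, so the share of cells with a read is given beside the level.

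The 3 genes lie on different chromosomes of GRCm38. Sox7 (ENSMUSG00000063060) occupies chr14:63943673-63950732 on the plus strand with 2 exons, Sox17 (ENSMUSG00000025902) chr1:4490931-4497354 on the minus strand with 5 exons, and Sox18 (ENSMUSG00000046470) chr2:181669836-181671640 on the minus strand with 2 exons. How the counting treated reads that fit more than 1 member is not given in the sources used here. Sox17 also overlaps the antisense gene Gm37587 over 804 bases, and whether the counting used strand is not given. In the ACE table, which holds both, 987 reads were counted to Gm37587 and 58655 to Sox17.

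At E10.5 all 3 genes were at similar levels in Endo and HE, lower in EHT and lowest in IAHC, and the differences were of unequal size. Sox7, which acts early in vascular specification, had 403 CPM in Endo (interval 397 to 409), 334 in HE (330 to 338), 136.5 in EHT (131.5 to 141.7) and 28.1 in IAHC (26.05 to 30.2). Sox17, the arterial member, had 159.8 CPM in Endo (155.9 to 163.7), 137.5 in HE (134.8 to 140.4), 60.1 in EHT (56.8 to 63.5) and 6.25 in IAHC (5.31 to 7.30). Sox18, known for its part in lymphatic and vessel development, had 345 CPM in Endo (339.7 to 351), 293 in HE (289 to 297), 185.8 in EHT (179.993 to 191.8) and 88.9 in IAHC (85.2 to 92.6). These intervals cover counting error only and not the spread between sorts. Between HE and IAHC the ratio was 22.02-fold for Sox17, 11.9-fold for Sox7 and 3.301-fold for Sox18.

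**Figure D1:**
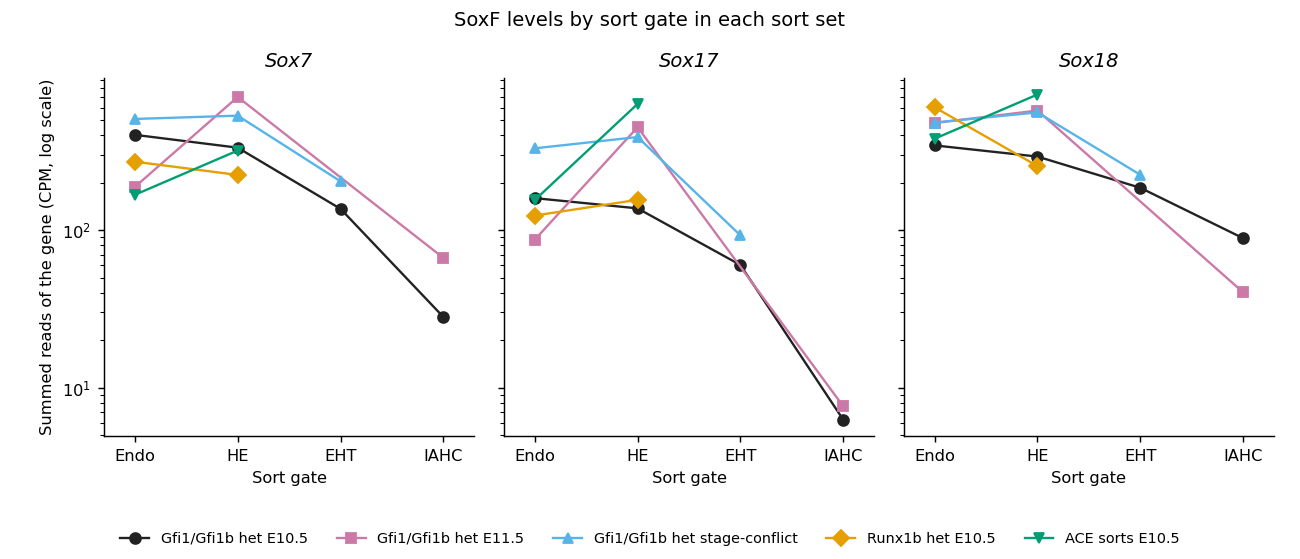
CPM of Sox7, Sox17 and Sox18 (log axis) in the summed cells of each gate, Endo, HE, EHT and IAHC, with 1 line for each sort set; the E11.5 line runs from HE straight to IAHC because that set has no EHT sort. Every set that holds EHT or IAHC ends below its own HE value, and Sox17 ends lowest, at 6.25 and 7.60 CPM.

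The share of cells with a read followed a different course for each gene. Sox18 was read in 89.2% of E10.5 Endo cells, 78.9% of HE, 90.2% of EHT and 73.8% of IAHC cells (31 of 42, interval 57.96 to 86.1%). Sox7 was read in 86.5%, 81.1% and 68.3% of Endo, HE and EHT cells and in 11.9% of IAHC cells (interval 3.98 to 25.6%). Sox17 went from 75.7% of Endo and 68.4% of HE cells to 31.7% of EHT and 7.14% of IAHC cells (3 of 42, interval 1.498 to 19.5%). Among the 78 HE cells with pan-endothelial genes the shares were 97.4% for Sox7, 83.3% for Sox17 and 94.9% for Sox18. Sox17 detection was thus already low in EHT while Sox7 detection was low only in IAHC, and Sox18 was still read in most IAHC cells at a lower level. The median cell went from 274.1 CPM of Sox18 in HE to 133.2 in EHT and 56.2 in IAHC. For Sox7 the median cell had 289.7 CPM in HE, 42.1 in EHT and 0 in IAHC, and for Sox17 it had 97.2 in HE and 0 in both EHT and IAHC.

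**Figure D2:**
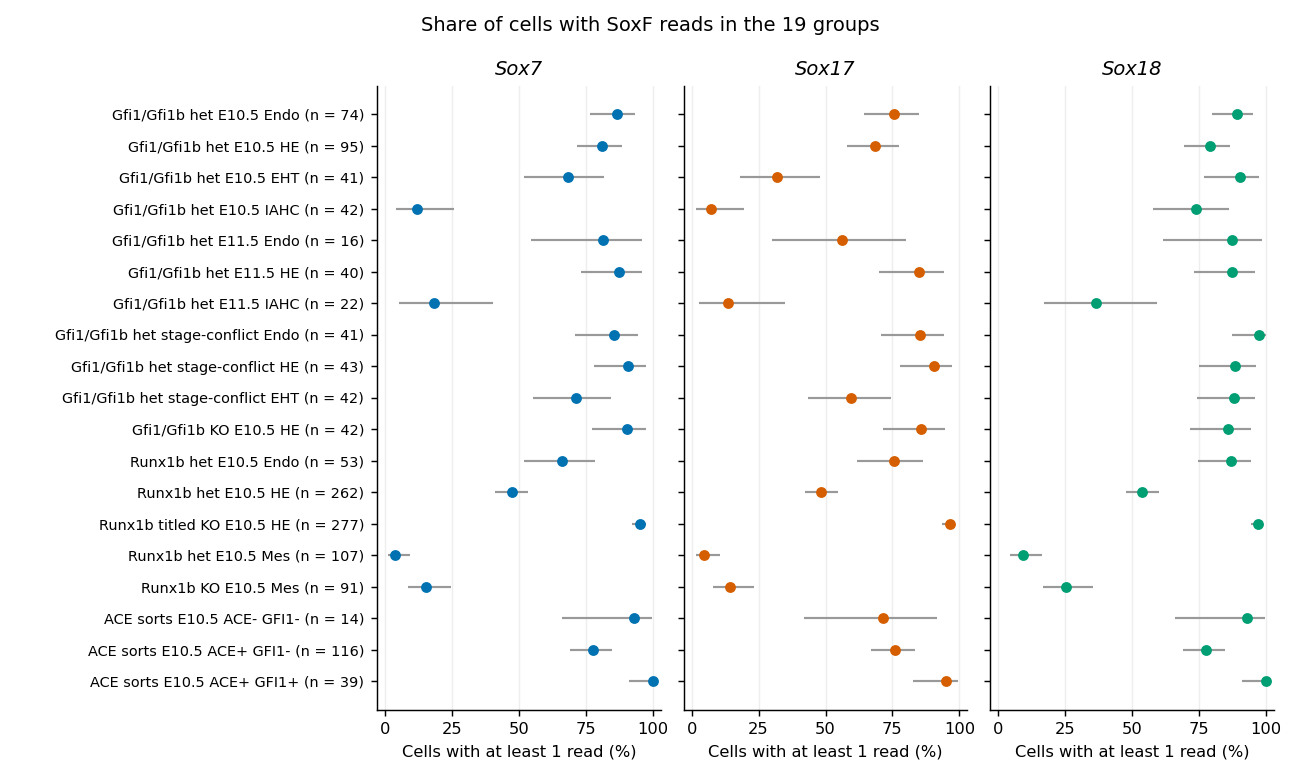
Share of cells (%) with at least 1 read of Sox7, Sox17 or Sox18 in each of the 19 groups, with 95% Clopper-Pearson intervals as bars. In E10.5 IAHC the Sox18 share is 73.8% while the Sox7 and Sox17 shares are 11.9% and 7.14%.

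In the stage-conflict set EHT was below HE as well. Its Sox7 level was 509 CPM in Endo, 534 in HE and 204.3 in EHT. Sox17 had 331 CPM in Endo, 390.3 in HE and 92.6 in EHT. Sox18 had 483 CPM in Endo, 559.7 in HE and 224.7 in EHT. In this set Sox17 was still read in 59.5% of EHT cells (interval 43.3 to 74.4%), against 31.7% at E10.5 (18.1 to 48.1%), and the intervals of the 2 sets overlap.

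At E11.5, HE held more of each gene than Endo and IAHC again held little. Sox7 had 188.2 CPM in 16 Endo cells, 701 in HE and 66.6 in IAHC. Sox17 had 86.9 CPM in Endo, 451 in HE and 7.60 in IAHC. Sox18 had 479 CPM in Endo, 575 in HE and 40.3 in IAHC. The E11.5 IAHC sum was a mixture: erythroid genes took 482546 CPM of it, and its 13 cells without pan-endothelial genes had no Sox7 or Sox17 read, which allows a share of up to 23.1% of such cells. In the other 9 cells Sox7 was at 184.9 CPM, Sox17 at 21.1 and Sox18 at 111.7, and reads were found in 4, 3 and 7 cells.

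Over all sorts of a gate, the order of mean levels was HE, Endo, EHT, IAHC for each gene. Sox7 averaged 423 ± 192.2 CPM in HE (SD, n = 5 sorts), 308 ± 145.4 in Endo (n = 5), 170.4 ± 47.9 in EHT (n = 2) and 47.4 ± 27.3 in IAHC (n = 2). Sox17 averaged 354 ± 209.2 CPM in HE, 171.3 ± 93.9 in Endo, 76.4 ± 23.03 in EHT and 6.92 ± 0.957 in IAHC. Sox18 averaged 482 ± 201.1 CPM in HE, 458 ± 100.9 in Endo, 205.3 ± 27.5 in EHT and 64.6 ± 34.4 in IAHC. HE and Endo overlapped for all 3 genes. These means and ranges do not pair the gates of a sort set, and within sets Sox17 was higher in HE in 4 of 5, and Sox7 and Sox18 in 3 of 5. Endo and EHT overlapped for Sox7 and Sox17, and for Sox18 the lowest Endo sort had 345 CPM and the highest EHT sort 224.7. The lowest HE and highest EHT sorts had 224.2 and 204.3 CPM of Sox7, 137.5 and 92.6 of Sox17, and 255.3 and 224.7 of Sox18. The lowest EHT and highest IAHC sorts had 136.5 and 66.6 CPM of Sox7, 60.1 and 7.60 of Sox17, and 185.8 and 88.9 of Sox18. How many of all genes separate in this way was not counted, so these ranges only describe the sorts. By another measure, edgeR called 0.0% of all genes from HE to EHT and from EHT to IAHC.

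In a fit of 10 sums of the Gfi1/Gfi1b line with the sort set as a block, Sox17 and Sox18 were lower in IAHC than in HE. The fitted log2 change was -4.71 ± 0.69 (SE) for Sox17 with an adjusted p of 0.0491 and -2.41 ± 0.25 for Sox18 with an adjusted p of 0.0284, adjusted by Benjamini and Hochberg's method over 17041 genes in edgeR (quasi-likelihood test). Sox7 had the second-largest change, -2.79 ± 0.73, and an adjusted p of 0.167. Of all genes 0.728% were called, and 0.663% were called lower in IAHC, beside 2 of 3 members. All 3 genes were lower in IAHC in both sets that hold the 2 gates, with log2 ratios of -3.57, -4.46 and -1.72 at E10.5 for Sox7, Sox17 and Sox18 and -3.40, -5.89 and -3.84 at E11.5. Without erythroid-like cells, which made up 14 of the 22 IAHC cells at E11.5, the E11.5 ratios were -2.40, -4.26 and -2.37. Without the 16 such cells of the E10.5 HE sort, the E10.5 ratios were -3.97, -4.86 and -2.11. Without the stage-conflict set edgeR called no gene at all (adjusted p of Sox17 0.435 and of Sox18 0.41, with 1369 genes at an unadjusted p under 0.05). Without the E10.5 set, only the E11.5 IAHC sort remained, and the log2 changes were -1.95, -4.39 and -2.76 for Sox7, Sox17 and Sox18. Without the E11.5 set, only the E10.5 IAHC sort remained, and these changes were -3.81, -4.86 and -2.08. With no filter on low counts only Sox18 remained past the threshold, and the adjusted p of Sox17 was 0.0546. Without erythroid-like cells, common in both the E10.5 HE and the E11.5 IAHC sort, edgeR's adjusted p were 0.133 for Sox7, 0.0498 for Sox17 and 0.00847 for Sox18. In all cells DESeq2 called all 3 members, Sox7 at an adjusted p of 0.0001162, among 2378 genes or 14% of those tested.

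Neither single step of the transition carried a call by edgeR. From HE to EHT the fitted log2 changes were -1.62 ± 0.69 for Sox7, -2.09 ± 0.62 for Sox17 and -1.28 ± 0.23 for Sox18, with edgeR adjusted p of 0.606, 0.405 and 0.212. From EHT to IAHC they were -1.17 ± 0.83, -2.62 ± 0.70 and -1.13 ± 0.26, each with an adjusted p of 1. Only the E10.5 set held both EHT and IAHC, so this fitted change also drew on sorts of different sets. Within the E10.5 set the log2 ratios of IAHC to EHT were -2.28, -3.27 and -1.06 for Sox7, Sox17 and Sox18. At both steps edgeR called 0 of 3 members and 0.0% of 17041 genes. At an unadjusted p under 0.05 it passed Sox17 and Sox18 at both steps, among 1459 genes from HE to EHT and 526 from EHT to IAHC. DESeq2 called the same 2 members at both steps, among 1131 and 644 genes. The direction was the same in both sets with an EHT sort, where the log2 ratios of EHT to HE were -1.29, -1.20 and -0.66 at E10.5 and -1.39, -2.07 and -1.32 in the stage-conflict set for Sox7, Sox17 and Sox18. Without erythroid-like cells the E10.5 ratios were -1.69, -1.60 and -1.05.

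Between Endo and HE no member passed the test. Over 8 sums in 4 sort sets the log2 change of HE against Endo was 0.64 ± 0.37 for Sox7 (adjusted p 0.411), 1.21 ± 0.46 for Sox17 (adjusted p 0.230) and 0.01 ± 0.33 for Sox18 (adjusted p 0.988), by edgeR's test over 14553 genes, of which 1.4% were called. Sox17 alone had an unadjusted p under 0.05 (0.0392), as 2817 genes did, and DESeq2 called it at an adjusted p of 0.0212 among 2584 genes. Within sets the log2 ratio for Sox17 was -0.22 at E10.5, 2.37 at E11.5, 0.33 in the Runx1b sorts, 2.03 in the ACE sorts and 0.24 in the stage-conflict set. Sox7 was higher in HE in 3 of 5 sets, Sox17 in 4 of 5 and Sox18 in 3 of 5. Erythroid-like cells sat in the E10.5 HE sort and not in its Endo sort, and without them its 3 ratios were 0.13, 0.19 and 0.15 log2 units for Sox7, Sox17 and Sox18. In the Runx1b sorts the ratios were -0.28, 0.33 and -1.24, and in cells with pan-endothelial genes alone they were 0.78, 1.39 and -0.22.

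Per base of exon, Sox18 was the most abundant SoxF transcript in all 19 groups. On this RPKM scale it made up 57.8% of the SoxF total in E10.5 Endo, 58.2% in HE and 84.8% in IAHC, while Sox7 and Sox17 went from 33.1% and 9.08% in Endo to 24.5% and 7.46% in EHT. Sox17 was the least abundant in 17 groups, and Sox7 was in the other 2, the ACE+ sorts. The E10.5 IAHC profile was not repeated at E11.5, where Sox7 took 43.3% of the total. Sox7 was read in only 5 of 42 IAHC cells at E10.5 and 4 of 22 at E11.5.

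In single cells the members were often read without each other. Reads of all 3 genes were found together in 45 of 74 E10.5 Endo cells and 63 of 95 HE cells, but in 12 of 41 EHT and 2 of 42 IAHC cells. Among the EHT cells, 15 had Sox7 and Sox18 without Sox17, and 9 had Sox18 alone. Among the IAHC cells, 26 had Sox18 alone, 1 had Sox17 alone and 0 had Sox7 alone, which by the limit of 3 cells allows a share of up to 7.14%. In the stage-conflict set 18 of 42 EHT cells held all 3, and in the E11.5 IAHC sort 2 of 22 cells did while 14 had none. Low-level reads can be missed in a single cell, so a cell without a read is not shown to lack the transcript.

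**Figure D3:**
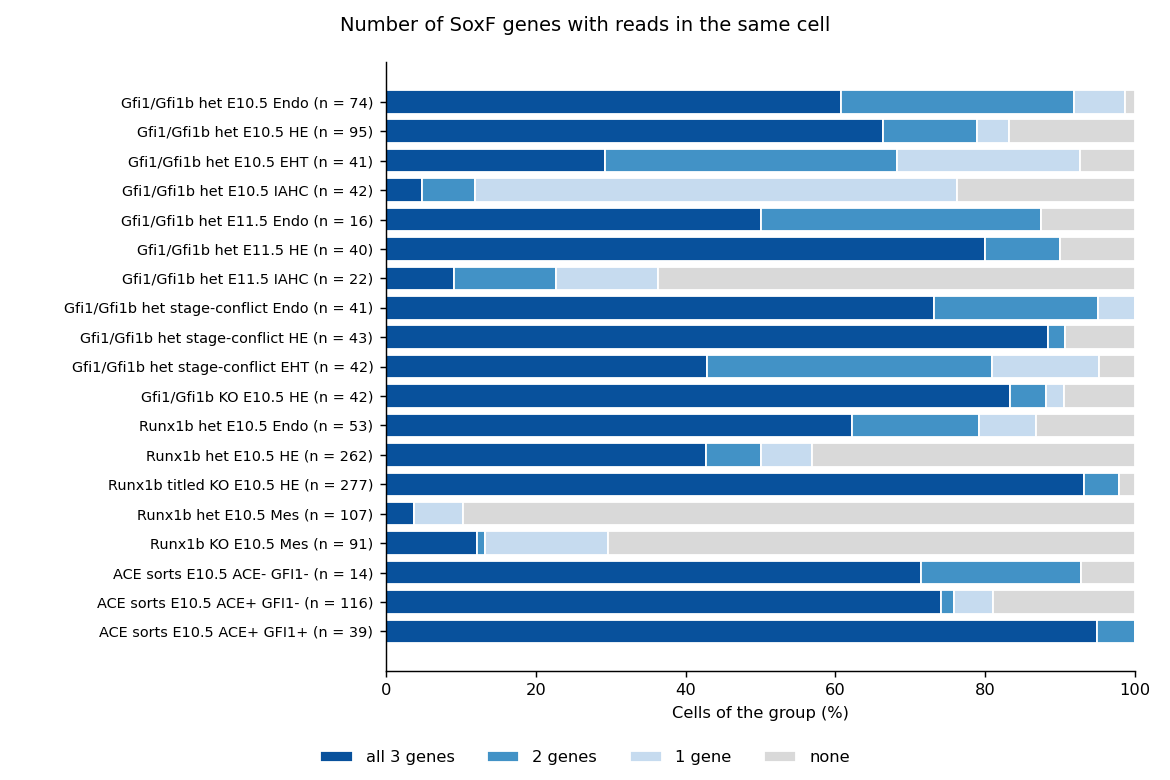
Share of cells (%) in each group with reads of all 3, 2, 1 or none of Sox7, Sox17 and Sox18, as stacked bars. Cells with all 3 make up 63 of 95 E10.5 HE cells, 12 of 41 EHT cells and 2 of 42 IAHC cells, and cells without any are common in the Mes sorts and in the Runx1b HE sort.

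How far the levels of the members went together from cell to cell within a gate varied with the gate and the pair. Cells with pan-endothelial genes and at least 50000 reads were used. Across 73 E10.5 Endo cells Pearson's r of the log2 CPM was between 0.0456 and 0.0953 for the 3 pairs. In 41 EHT cells at E10.5 it was 0.475 for Sox7 with Sox17, 0.411 for Sox7 with Sox18 and 0.284 for Sox17 with Sox18. For Sox7 with Sox17 r reached 0.583 in E10.5 IAHC and 0.601 in ACE+GFI1- cells but was 0.036 in E11.5 HE. Spearman's rank correlation was 0.496, 0.288 and -0.00193 in the same order. In E10.5 IAHC only 5 of 42 cells had Sox7 reads and 3 had Sox17 reads. For Sox17 with Sox18 r was 0.702 in E11.5 HE and 0.563 in ACE+GFI1+ cells, and 0.0677 in E10.5 IAHC. Spearman's rank correlation was there 0.59, 0.225 and 0.108. The cells of a gate share a sort and libraries of unequal depth, and the values are a description.

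**Figure D4:**
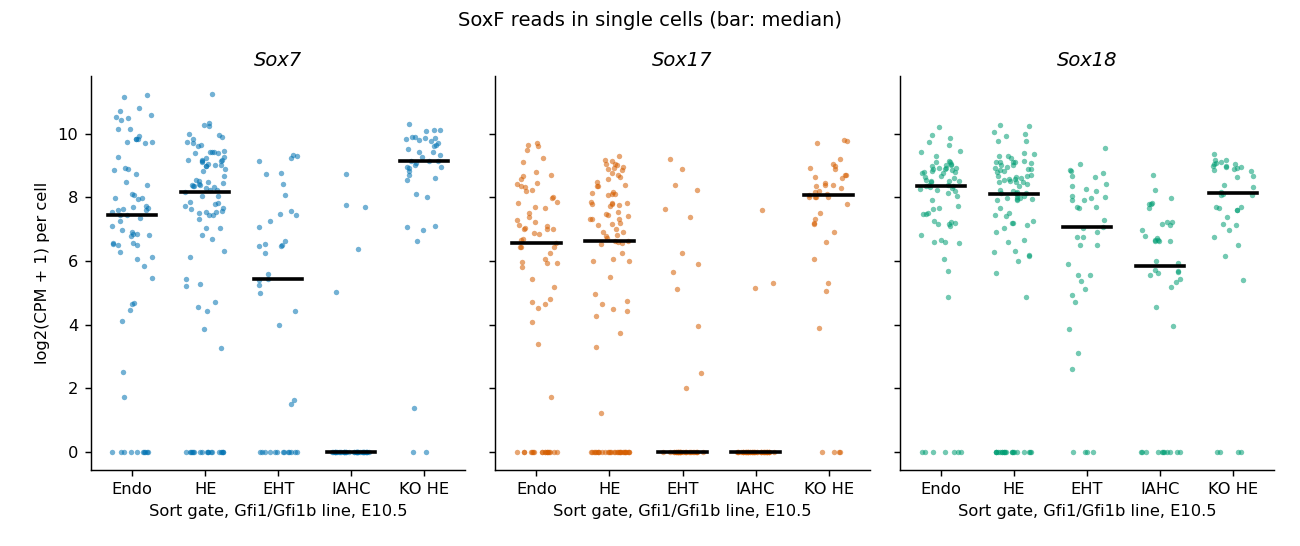
Log2(CPM + 1) of Sox7, Sox17 and Sox18 in single cells (points) of the E10.5 gates of the Gfi1/Gfi1b line and of the knockout HE (KO HE), leaving out cells with fewer than 50000 reads; the bars are medians. At E10.5 the median Sox7 and Sox17 cell is at 0 in IAHC, while the median Sox18 cell stands at 56.2 CPM.

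In all, 369 of 1457 cells had no read of any member, and 348 of those also lacked the pan-endothelial genes. Of the 369, 76 were erythroid-like and 38 had fewer than 50000 reads. The 21 cells without SoxF reads that did carry pan-endothelial genes were mostly from the later gates, with 10 in E10.5 IAHC, 3 in E10.5 EHT, 2 in stage-conflict EHT and 2 in E11.5 IAHC. In E10.5 HE, by contrast, all 16 cells without SoxF reads lacked pan-endothelial genes and 15 of them were erythroid-like.

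Detection of the members was set beside that of 2 genes of the blood programme. Ptprc, which encodes the blood marker CD45, had reads in 8 of 41 E10.5 EHT cells, and Sox18 was read in 4 of those 8 and in 33 of the 33 others. Sox7 was read in 3 of the 8 and in 25 of the 33. The stage-conflict EHT sort held 31 cells with Ptprc reads, of which 19 had Sox7, against 11 of 11 cells without. Sox18 did not follow the E10.5 order there, with 28 of the 31 cells and 9 of the 11. In E10.5 IAHC Sox18 was read in 18 of 24 cells with Ptprc reads and in 13 of 18 without. In the E10.5 GFI1-sorted HE, Sox7 was read in 42 of 45 cells with Runx1 (93.3%) and in 35 of 50 without. Of those 50 cells 16 lacked pan-endothelial genes, and among the cells that carried them Sox7 was read in 42 of 44 with Runx1 and in 34 of 34 without. In the RUNX1b-sorted HE, Sox7 was read in 13 of 69 cells with Runx1 (18.8%) and in 57.5% of those without, Sox17 in 15.9% against 60.1% and Sox18 in 33.3% against 61.1%. Of the 69 RUNX1b-sorted cells with Runx1 reads, 52 lacked pan-endothelial genes. In the 17 that carried them Sox7 was read in 13, Sox17 in 11 and Sox18 in 16. None of these differences in detection was tested.

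In the RUNX1b-sorted HE nearly all SoxF reads lay in cells with pan-endothelial genes. In its cells with pan-endothelial genes, Sox7 was at 467 CPM, Sox17 at 325 and Sox18 at 518, and Runx1 was at 5.998. The other cells were mixed, with 30 erythroid-like cells and 98 that were not. In them Sox7 was at 0.159 CPM, Sox18 at 12.7 with reads in 15 cells, and Sox17 had no read, which allows a share of up to 2.34% of such cells, while Runx1 was at 28.8 CPM. All 20 mesenchymal genes had reads in these other cells, at a summed 19702 CPM against 1664 in the cells with pan-endothelial genes. Erythroid genes summed to 168122 CPM in them, against 4677. Over the whole sort the members were read in 47.3% (Sox7), 48.5% (Sox17) and 53.8% (Sox18) of cells. Against the GFI1-sorted HE of the same stage, 0 of 3 members differed by at least 2-fold, as 12.1% of genes did, with log2 ratios of -0.58, 0.18 and -0.20 for Sox7, Sox17 and Sox18. In cells with pan-endothelial genes the ratios were 0.06, 0.82 and 0.41.

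With 1 sum on each side, the remaining comparisons have no test and no replicate check. A member counted as different at a ratio of at least 2-fold with at least 20 CPM in the higher group.

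In the Gfi1/Gfi1b knockout HE, Sox7 and Sox17 stood above the E10.5 heterozygous HE sort of this line, while Sox18 was level with it. Over the 5 heterozygous HE sorts of all lines and stages, Sox7 ran from 224.2 to 701 CPM, Sox17 from 137.5 to 634 and Sox18 from 255.3 to 727. All 3 knockout values lay within these ranges. The targeted genes themselves were read in the knockout, Gfi1 at 218.9 CPM against 55.2 in heterozygous HE and Gfi1b at 91.6 against 52.1, and since reads from the knock-in alleles may lie outside the replaced part, these levels check nothing. Sox7 had 571 CPM in the knockout (interval 560.5 to 583) and 334 in heterozygous HE, a ratio of 1.71. Sox17 had 269.5 CPM (261.96 to 277.2) against 137.5, a ratio of 1.9595, and Sox18 312 CPM (304 to 321) against 293, a ratio of 1.07 whose log2 value, 0.09, was -0.04 with TMM scaling. None of the 3 reached 2-fold, which 10.3% of genes did. All 3 genes were read together in 35 of 42 knockout cells, against 63 of 95 heterozygous HE cells. Erythroid genes took 146068 CPM of the heterozygous sum and 35515 of the knockout sum, and among cells with pan-endothelial genes the log2 ratios were 0.54, 0.74 and -0.13 for Sox7, Sox17 and Sox18.

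Set against heterozygous EHT cells of the same stage, the knockout HE held 4.19-fold more Sox7, 4.49-fold more Sox17 and 1.68-fold more Sox18. Thus 2 of 3 members passed 2-fold, as 14.8% of genes did, and the median log2 ratio over all genes was -0.14. Runx1 was at 98.5 CPM in the knockout HE and read in 78.6% of its cells, between heterozygous HE (61.4 CPM, 47.4%) and EHT (233.7 CPM, all 41 cells). In the knockout the median cell had 563 CPM of Sox7, 264.2 of Sox17 and 273.2 of Sox18. Sox18 made up 45.6% of the SoxF total per base of exon, against 58.2% in heterozygous HE.

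The Runx1b cells titled knockout had more of every member than the heterozygous HE sum. Runx1 was at 1.47 CPM and read in 6.86% of these cells, against 17.8 CPM and 26.3% in the heterozygous sort. Gene counts do not separate the RUNX1b isoform from the others. Sox7 had 571 CPM (interval 567.5 to 574) against 224.2 (221.9 to 226.6), Sox17 467 (464 to 469.7) against 155.9 (153.9 to 157.8) and Sox18 733 (729 to 737) against 255.3 (252.8 to 257.8). The ratios were 2.55, 2.99 and 2.87, so 3 of 3 members passed 2-fold, as 11.4% of genes did, with a median log2 ratio over all genes of 0.12. Reads of all 3 were found together in 93.1% of cells, against 42.7% in the heterozygous sort. Pan-endothelial genes were detected in 97.8% of the cells titled knockout but in 51.1% of the heterozygous cells. Compared within such cells the log2 ratios were 0.31, 0.54 and 0.52 for Sox7, Sox17 and Sox18, and 0 of 3 passed 2-fold. The share of all genes past 2-fold within such cells was not counted, so this only describes the members.

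In the CDH5-negative Mes sorts SoxF reads were rare and came from a few cells. Heterozygous Mes had 19.9 CPM of Sox7, 20.6 of Sox17 and 14.4 of Sox18, read in 3.74%, 4.67% and 9.35% of cells. Homozygous Runx1b:RFP/RFP Mes had 103.1 CPM of Sox7, 56.7 of Sox17 and 103.6 of Sox18, read in 15.4%, 14.3% and 25.3% of 91 cells. The ratios were 5.17, 2.75 and 7.18, so 3 of 3 passed 2-fold, as 8.39% of genes did. Runx1 was read in 39.3% of heterozygous and 47.3% of homozygous cells, at 35.3 and 20.1 CPM.

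Pan-endothelial genes were present in 13 homozygous Mes cells, where Sox7 was at 726 CPM, Sox17 at 399 and Sox18 at 629, and in 7 heterozygous ones, where they were at 341, 353 and 192.6. The remaining 78 homozygous cells had 0.0458 CPM of Sox7, the same of Sox17 and 16.6 of Sox18. The remaining 100 heterozygous cells had no read of Sox7 or Sox17, which allows a share of up to 3% of such cells, and 3.38 CPM of Sox18. The 13 cells had no Runx1 read, which allows a share of up to 23.1% of them, and their mesenchymal genes summed to 328 CPM against 13261 in the other 78.

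**Figure D5:**
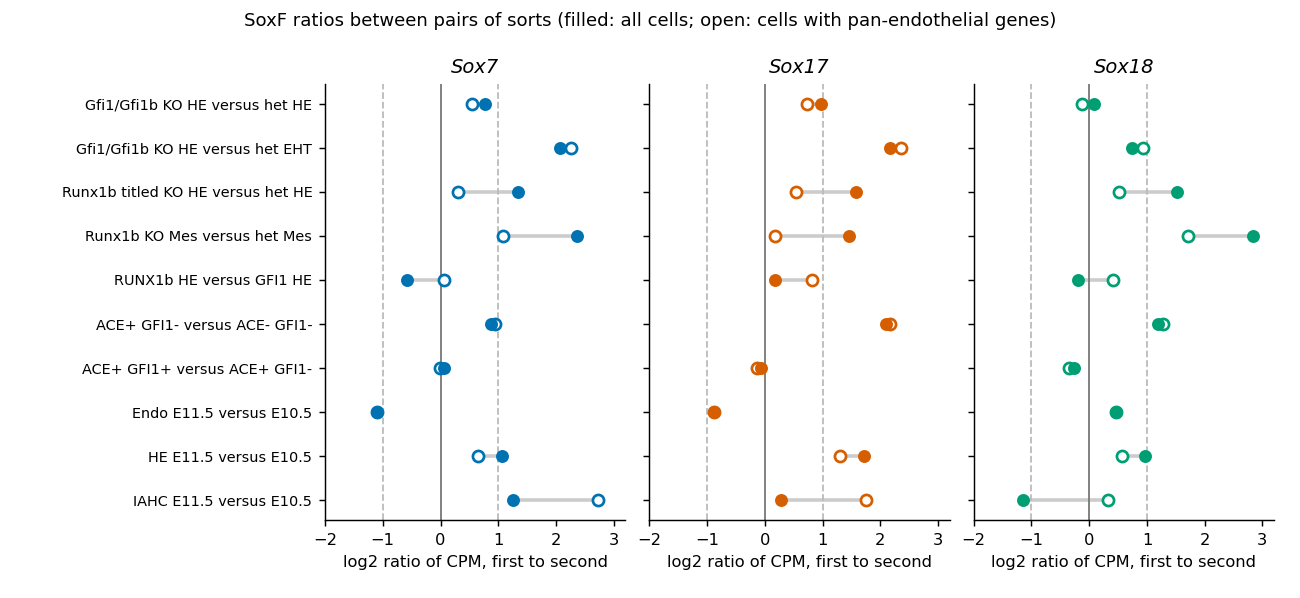
Log2 ratio of Sox7, Sox17 and Sox18 in the 10 comparisons of 1 sum with 1 sum, in all cells and in cells with pan-endothelial genes; dashed lines mark 2-fold. The cells titled Runx1b knockout stand 1.35 to 1.58 log2 units above heterozygous HE in all cells and 0.31 to 0.54 among cells with pan-endothelial genes.

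Sox17 and Sox18 were higher in endothelium sorted for ACE, the angiotensin-converting enzyme, than in endothelium without it. Ace itself was at 0.343 CPM in ACE-GFI1- cells, 52.9 in ACE+GFI1- and 27.8 in ACE+GFI1+ cells. Sox17 had 155.2 CPM in ACE-GFI1- cells (interval 148.9 to 161.8), 662 in ACE+GFI1- (655 to 668) and 634 in ACE+GFI1+ cells (625 to 643). Sox18 had 381 (371 to 391), 875 (867 to 882) and 727 CPM (718 to 737), and Sox7 had 167.7 (161.1 to 174.5), 306 (302 to 311) and 320.5 CPM (314 to 327). From ACE- to ACE+ among GFI1- cells the ratios were 1.83 for Sox7, 4.26 for Sox17 and 2.30 for Sox18, so 2 of 3 members passed 2-fold, as 28% of genes did. The ACE- sum holds 14 cells.

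ACE+ cells with and without the GFI1 reporter had similar levels. The log2 ratios of ACE+GFI1+ to ACE+GFI1- were 0.07 for Sox7 (-0.04 with TMM scaling), -0.06 for Sox17 and -0.27 for Sox18, and 0 of 3 reached 2-fold, as 5.25% of genes did. Over all cells, all 3 members were read in 37 of 39 ACE+GFI1+ cells and in 74.1% of ACE+GFI1- cells, of which 22 cells had none. All 22 lacked pan-endothelial genes and 12 had fewer than 50000 reads. Among cells with pan-endothelial genes all 3 members were read in 94.9% of ACE+GFI1+ and 94.5% of ACE+GFI1- cells. Sox17 was above Sox7 in CPM in the ACE+ sorts, whereas in E10.5 Endo of the Gfi1/Gfi1b line Sox7 was the higher of the pair.

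Between stages the members differed in another way in each gate. In Endo the log2 ratio of E11.5 to E10.5 was -1.10 for Sox7, -0.88 for Sox17 and 0.47 for Sox18, so 1 of 3 passed 2-fold, as 19.3% of genes did. In HE it was 1.07 for Sox7, 1.71 for Sox17 and 0.97 for Sox18, with 2 of 3 past 2-fold, as 25.9% of genes were, and the median over all genes was 0.27. In HE cells with pan-endothelial genes these ratios were 0.66, 1.299 and 0.57.

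In IAHC the log2 ratio was 1.25 for Sox7 and -1.14 for Sox18, with 2 of 3 members past 2-fold, as 63.3% of genes were. Sox17 was under 20 CPM at both stages. The median log2 ratio over all genes was -1.17 in this comparison, beside the erythroid reads of the E11.5 sum. Among cells with pan-endothelial genes the 3 ratios were 2.72, 1.76 and 0.33. At E11.5 these were 9 cells, with Sox7 read in 4 and Sox17 in 3. At E10.5 they were 42 cells, with Sox7 read in 5 and Sox17 in 3. The order of stages for Sox18 in IAHC was thus opposite in all cells and in cells with pan-endothelial genes.

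Across the 19 groups the 3 members had similar profiles, with r of log2(CPM + 1) of 0.883 for Sox7 with Sox17, 0.865 for Sox7 with Sox18 and 0.858 for Sox17 with Sox18. Of 9653 genes read in at least 25% of the cells of a group, those most like Sox7 were Icam2 (r = 0.959), Ecscr (0.925), Card10 (0.924), F11r (0.922) and Nos3 (0.918). Those most like Sox17 were Cgnl1 (0.971), Itga5 (0.965), Dll4 (0.964), Prkcdbp (0.959) and F11r (0.959). Those most like Sox18 were Pecam1 (0.98), Ecscr (0.97), Tspan18 (0.963), Esam (0.962) and Egfl7 (0.959). The groups share lines, stages and the share of cells with endothelial genes, so these values describe the 19 sums.

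A list of 20 vascular genes that are linked to SoxF factors in the literature was read in the same fits. From HE to IAHC, 4 of 20 fell and none rose: Kdr, the VEGF receptor (-3.73 ± 0.41), Cldn5, a tight-junction protein (-3.26 ± 0.47), Tek, the angiopoietin receptor (-3.02 ± 0.34), and Ephb4, an ephrin receptor of veins (-2.84 ± 0.31), with edgeR adjusted p of 0.0284, 0.0479, 0.0284 and 0.0284. The list's median log2 change was -3.01, beside -0.04 for all genes tested, of which edgeR called 0.663% lower in IAHC. Of the 20 pan-endothelial genes 10 fell, with a median of -2.09, among them Ramp2, a co-receptor for adrenomedullin (-3.58 ± 0.25, edgeR adjusted p 0.0105). Kdr, Cldn5 and Tek are on this list too, and Ephb4 is on a list of venous and lymphatic genes, so the counts of these lists share genes. All 19 arterial genes had estimates below 0 and a median of -3.21, but edgeR called none, with 15 at an unadjusted p under 0.05 and 15 called by DESeq2. None of these edgeR calls held without the E10.5 set or without the stage-conflict set, where no gene was called.

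Of 15 ETS and partner factors of SoxF proteins edgeR called none in IAHC against HE (4 at an unadjusted p under 0.05, 2 by DESeq2), and their median was -0.09. Of 20 hematopoietic genes it called none, with 19 estimates above 0, a median of 2.91, 10 at an unadjusted p under 0.05 and 9 called by DESeq2.

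From Endo to HE the same SoxF-linked list split. Hey2, an arterial Notch target (5.15 ± 0.77, adjusted p 0.0490), and Nrp1, a VEGF co-receptor of arteries (1.59 ± 0.21, adjusted p 0.0371), rose, whereas Flt4, the VEGF receptor of lymphatic endothelium (-2.38 ± 0.19, adjusted p 0.0123), and Robo4, an endothelial guidance receptor (-1.87 ± 0.21, adjusted p 0.0243), fell, by edgeR. The list's median was 0.54, beside 0.09 for all genes, of which edgeR called 1.4%. Of 19 arterial genes 5 rose and none fell, with a median of 1.75, and they included the gap-junction gene Gja5 (3.69), the Notch ligand Jag1 (2.35) and Sema3g (2.10). Of 11 venous and lymphatic genes 1 rose and 3 fell. Hey2 and Nrp1 are also on the arterial list and Flt4 on the venous and lymphatic list, so these counts share genes. None of these calls held without the ACE set, where edgeR called no gene (1977 at an unadjusted p under 0.05), nor in the fit of the 10 sums of the Gfi1/Gfi1b line, where it called none either (1480 at an unadjusted p under 0.05). It called 3 genes in all without the Runx1b set, 20 without the E10.5 set and 0.895% of genes without the E11.5 set. Erythroid genes rose as well, 5 of 7, as did 1 of 10 mesenchymal genes, and the part of these cells in the other changes was not tested. From HE to EHT the SoxF-linked list had a median of -1.89, with 17 of 20 estimates below 0. There edgeR called none, 11 had an unadjusted p under 0.05 and DESeq2 called 9.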

How the data were processed

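Read counts per gene and cell were used as deposited by the authors, raw and not normalized. Per the submitters' processing notes, the tools were STAR 2.4.2a and HTSeq 0.6.1p1, beside bcl2fastq and R 3.6.2, and the build GRCm38; neither read length nor strand setting is given there. The deposited counts come in a table of 1288 cells and a table of the 169 ACE-sorted cells. The 36131 genes that both hold whole were kept; 13454 further genes that only the ACE table holds whole, with 10.1% of that table's reads, were left out.

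Cells were grouped by title and summed to 19 sums; the largest groups were the Runx1b HE (262 cells), the cells titled knockout (277), ACE+GFI1- (116) and heterozygous Mes (107), with no embryo labels, so p-values measure the spread between sorts, which may be technical. Levels are CPM of a sum, and RPKM uses the exon union length. HE was compared with Endo over 8 sums (4 sets, 3 residual degrees of freedom, 14553 genes after edgeR's filter on low counts) and the gates of the Gfi1/Gfi1b line over 10 sums (3 sets, 4 residual degrees of freedom, 17041 genes). Both used edgeR 4.0.16 (quasi-likelihood test, TMM scaling, sort set as a block, Benjamini-Hochberg threshold 0.05) in R 4.3.3, with DESeq2 1.42.0 as an alternative. Fits were tested on simulated data. The other 10 comparisons set 1 sum against 1 and have no test. Per-cell CPM and figures were made with Python 3.11.15, pandas 2.3.3, numpy 2.4.6, scipy 1.17.1 and matplotlib 3.10.9.

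Alternatives were thinning each cell to 100000 reads, leaving out erythroid-like or shallow cells, other scalings and filters, leaving out each sort set, and counting only cells with pan-endothelial genes. The members and gene lists were chosen with earlier results of these data known. Named genes of a list are the up to 4 with the largest change, those past the threshold first; the 5 nearest genes of each member were ranked by Pearson's r of log2 CPM with a pseudocount of 1. Positions and exons are from the GENCODE annotation of GRCm38; nucleotide sequences of the members are not reported here.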

Additional observations from a re-analysis of the deposited data

How the results depend on the processing

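All but 7 of the alternative fits kept the sign of a member's change, and all but 14 of 180 alternative ratios of 1 sum to 1 sum did. Of the 3 members, DESeq2 called 1 from Endo to HE, 2 from HE to EHT, 2 from EHT to IAHC and 3 from HE to IAHC. Of all genes it called 17.8%, 6.64%, 3.78% and 14% in the same order. Between HE and IAHC, edgeR called 1 member with no filter on low counts, where it called 0.421% of all genes. Without the stage-conflict set it called 0 members and 0 genes. When the E10.5 or the E11.5 set was left out, all 3 log2 changes stayed below 0. Sox7 from EHT to IAHC ranged from -2.29 to 0.076 (log2) over all alternatives, with 0.076 without the E10.5 set. Without that set no sort set held both gates. The counts past a fold that follow come without the share of all genes under the same alternative, so they only describe the members. Against heterozygous HE, the Gfi1/Gfi1b knockout HE had 1 member past 2-fold with each cell thinned to 100000 reads and 2 past 1.5-fold. In the cells titled Runx1b knockout, 0 passed among cells with pan-endothelial genes. For ACE+GFI1- against ACE-GFI1- cells, 1 passed with the mean of per-cell CPM and 1 after thinning. Between stages, 2 passed 1.5-fold in Endo. In HE, 1 passed with the mean of per-cell CPM, after thinning, without erythroid-like cells, with TMM scaling and among cells with pan-endothelial genes. In IAHC, 1 was counted under the last 3 of these, with the minimum of 20 CPM judged in all cells. Sox17, under it there, was not counted, though its log2 ratio was 1.92 without erythroid-like cells (23.6 against 6.25 CPM) and 1.76 among cells with pan-endothelial genes (21.1 against 6.25 CPM), where it would make 2. In IAHC the log2 ratio of Sox18 was 0.33 both without erythroid-like cells and among cells with pan-endothelial genes. The cause was not tested. Counting only cells with pan-endothelial genes was added after seeing the data for the Mes, ACE, Endo stage and IAHC stage comparisons. No paired analysis was possible by replicate number, because the labels carry none; both fits paired the gates by sort set, as a block. Depth limits the shares of cells with a read, since 42 cells had under 50000 reads.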

Other observations

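The other SOX genes had profiles of their own in the same sums. Sox11, a SoxC factor of embryonic progenitors, had 156.3 CPM in E10.5 Endo, 29.04 in HE, 2.96 in EHT and 1.42 in IAHC. Sox6, a SoxD factor known from red-cell maturation in the mouse, had 14.5 CPM in E10.5 Endo, 75.2 in HE, 24.96 in EHT and 6.56 in IAHC, and 128.9 and 118.97 CPM in the ACE+GFI1- and ACE+GFI1+ sorts. From Endo to HE the log2 change was 4.598 for Sox6 (edgeR adjusted p 0.171) and -2.11 ± 0.44 for Sox11 (adjusted p 0.0889). Of 7 other SOX genes tested there edgeR called none, 4 had an unadjusted p under 0.05 and DESeq2 called 4.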
